A study of Mus musculus with 18 samples.

Results

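Erk3 silencing was examined for the change it made in both media alike. The comparison sets 6 libraries with siRNA against Erk3 (siErk3, 3 in BSA and 3 in PA) against 6 libraries with non-targeting siRNA (siNtc, 3 in BSA and 3 in PA), with the medium as a blocking factor, so 12 of the 18 libraries of the series were used and the 6 with siRNA against Mk5 (siMk5) serve only as a further reference. All groups are C2C12, one established line of mouse myoblasts. Pools of siRNAs, which lower a transcript without deleting the gene, were given at confluence. After 6 days of differentiation the myotubes spent 16 h without serum, either with BSA as vehicle (BSA) or with BSA carrying palmitic acid at 0.5 mM (PA). Poly(A) RNA was sequenced with strand information. The labels do not state if replicate libraries came from separate cultures, so p-values measure the spread between these libraries, which may be technical.

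Erk3 is an atypical MAP kinase encoded by Mapk6. It lacks the usual activation loop motif of the ERK family, turns over quickly, and binds the kinase Mk5 (Mapkapk5). Many of the transcripts described here belong to the interferon system: sensors such as Mda5 (Ifih1) detect foreign nucleic acid, the secreted interferons act through JAK kinases and STAT factors, and a complex of STATs with Irf9 binds interferon-stimulated response elements in promoters of antiviral genes, while Usp18 damps the receptor. In myotubes these genes sit beside a large program of sarcomere genes, in which embryonic, perinatal, slow and fast isoforms follow each other during development.

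The promoters of 4 interferon genes are shown because 2 of them (Rsad2 and Trim30a) shifted alike in both media and 2 (Oas2 and Usp18) shifted by unequal amounts, and all carry the same kind of element. Each sequence runs 5′ to 3′ on the gene's strand from 250 bases before to 50 bases after the start of the Ensembl canonical transcript in GRCm39, 300 bases in all. Capitals mark matches to the core of the interferon-stimulated response element, GAAANNGAAA on either strand (TTTCNNTTTC when read on the other), with overlapping matches counted.
Rsad2 (chr12:26506402-26506701, minus strand): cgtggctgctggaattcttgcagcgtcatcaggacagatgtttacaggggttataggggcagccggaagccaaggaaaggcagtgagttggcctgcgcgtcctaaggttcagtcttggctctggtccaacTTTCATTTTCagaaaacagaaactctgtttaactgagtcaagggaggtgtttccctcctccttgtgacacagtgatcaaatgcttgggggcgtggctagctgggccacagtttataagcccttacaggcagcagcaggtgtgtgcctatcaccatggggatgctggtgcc
Trim30a (chr7:104114358-104114657, minus strand): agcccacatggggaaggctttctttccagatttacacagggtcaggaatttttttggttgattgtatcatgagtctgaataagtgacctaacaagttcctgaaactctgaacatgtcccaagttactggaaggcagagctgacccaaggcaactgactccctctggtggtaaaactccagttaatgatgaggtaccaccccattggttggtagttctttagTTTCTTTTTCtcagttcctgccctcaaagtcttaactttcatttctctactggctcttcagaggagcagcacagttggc
Oas2 (chr5:120887884-120888183, minus strand): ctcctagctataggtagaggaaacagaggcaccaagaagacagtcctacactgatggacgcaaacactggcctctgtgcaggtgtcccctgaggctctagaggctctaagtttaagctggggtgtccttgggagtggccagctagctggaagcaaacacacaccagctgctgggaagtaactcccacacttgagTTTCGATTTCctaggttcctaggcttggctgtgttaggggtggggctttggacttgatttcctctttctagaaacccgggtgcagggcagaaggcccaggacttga
Usp18 (chr6:121222607-121222906, plus strand): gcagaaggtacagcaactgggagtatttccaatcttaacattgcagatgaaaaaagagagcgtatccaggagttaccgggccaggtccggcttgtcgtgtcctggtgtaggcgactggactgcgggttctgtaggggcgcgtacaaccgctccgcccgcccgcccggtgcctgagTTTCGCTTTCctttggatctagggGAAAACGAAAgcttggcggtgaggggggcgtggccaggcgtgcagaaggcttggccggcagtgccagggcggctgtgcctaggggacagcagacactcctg
The match began 120 bases before the start in Rsad2, 29 in Trim30a and 56 in Oas2, and Usp18 had a pair of matches at 75 and 51 bases. Of the promoters of all 14994 protein-coding genes tested, 538 (3.59%) held the motif. It was found in 25 of 48 promoters (52.1%) of interferon genes that rose, in 23 of 83 promoters (27.7%) of interferon genes that were not called, in 12 of 90 (13.3%) of the other protein-coding genes that rose, and in 3 of 37 (8.11%) of those that fell. Among the 18 interferon genes that shifted alike it was found in 11 (61.1%). A match describes letters in a window and is not a measured binding site.

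The targeted transcript was lower in every siErk3 library. Mapk6 (ENSMUSG00000042688, chr9:75276344-75317287 of GRCm39) was measured at 135, 129 and 133 TMM-normalized CPM (counts scaled to library size) in the siNtc libraries in BSA and at 56.6, 60.3 and 55.2 in the siErk3 libraries. In PA it was measured at 215, 236 and 244 with siNtc and at 131, 119 and 109 with siErk3. The groups did not overlap in either medium, and the mean left after silencing in PA, 119.9 CPM, was near the control mean of 132 in BSA. By the quasi-likelihood test of edgeR the common log2 fold change was -1.07 (SE 0.05, FDR = 1.6e-13), or 0.476 of the control level. The effect was 0.25 weaker in PA on the log2 scale (95% interval 0.09 to 0.42, edgeR FDR = 0.524 for the difference). Its binding partner Mapkapk5 changed by -0.14 (edgeR FDR = 0.758), although 56.4% of its exonic bases are shared with Gm42878 on the same strand. Of the 14 genes listed as Erk3 itself and its relatives, partners or substrates, only Mapk6 was called, where 0.900% of all genes were.

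The 12 libraries held 13041979 to 28496727 assigned read pairs. Reads of 18S ribosomal RNA made up 2.56% to 7.17% in siNtc and 1.50% to 2.96% of counts in siErk3 in BSA, and 5.32% to 6.43% and 3.74% to 6.77% in PA. This share moved with silencing in BSA, and its part in the results was not tested beyond the fit with this share as a covariate, which called 148 genes. The 8 defining markers of myotubes (Acta1, Ckm, Myh3, Myog, Ttn, Tnnt3, Des and Mylpf) were present in all libraries, with summed levels of 16064 to 16602 CPM in siNtc and 15593 to 17449 in siErk3 in BSA, and 13764 to 14247 and 14149 to 15306 in PA, and only Myh3 was called. Of 14 markers of undifferentiated or cycling myoblasts none was called, where 0.900% of all genes were. Of 9 markers of blood and endothelial cells only 4 reached 10 counts over the 18 libraries, and these summed to between 1.67 and 2.51 CPM in all 12 libraries, with no member called.

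A gene was called in the common effect when its FDR was below 0.05 and its fold change above 1.3. Of 21771 genes tested, 196 (0.900%) were called, of which 150 (0.689%) rose and 46 (0.211%) fell, and 175 of the 196 code for proteins. The median log2 fold change of all genes was 0.01, and 2366 genes had an unadjusted p under 0.05. The siErk3 and siNtc libraries lay fully apart, in the same direction in both media, for 568 genes (2.61%) of all tested. This held for 130 of the 150 genes that rose and 31 of the 46 that fell. Those genes were called from the same libraries, and the rule for naming genes used this separation in part. Where it is given for single genes it is a description and not further evidence. Of the genes that rose, 57 were also called in each medium alone and 28 in neither, so that 28 calls rested on the pooled libraries. Of the genes that fell, 9 were called in each medium alone and 19 in neither. The sign was the same in both media for 149 of the 150 genes that rose and for all 46 that fell. The exception was Oasl1, which had at most 0.179 CPM in any BSA library and so was measured in PA alone (log2 fold change 0.55).

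A called gene was classed as shifted alike when it moved by more than 1.3-fold in the same direction in each medium and the 95% interval of the difference between media included 0. This held for 97 of the 150 genes that rose and for 26 of the 46 that fell, 123 in all. For 4 genes, all of them higher, the difference itself passed an FDR of 0.05, and the other 49 higher and 20 lower genes were left undetermined. An interval that includes 0 does not show equal effects. Its computed width is imprecise where the difference is near 0. Its half-width had a median of 0.56 on the log2 scale for the higher and 0.60 for the lower genes that were classed as alike, and only 27 of the 123 had the whole interval within 0.5. Over all genes the difference between media passed the FDR for 9 of 21772 genes (0.0413%), and leaving out 1 library at a time gave 0 to 29 such genes, so that the calls of a difference given for single genes rest on all libraries. Leaving out 1 library at a time kept 115 of the 150 higher and 23 of the 46 lower genes called in all 12 fits.

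**Figure D1:**
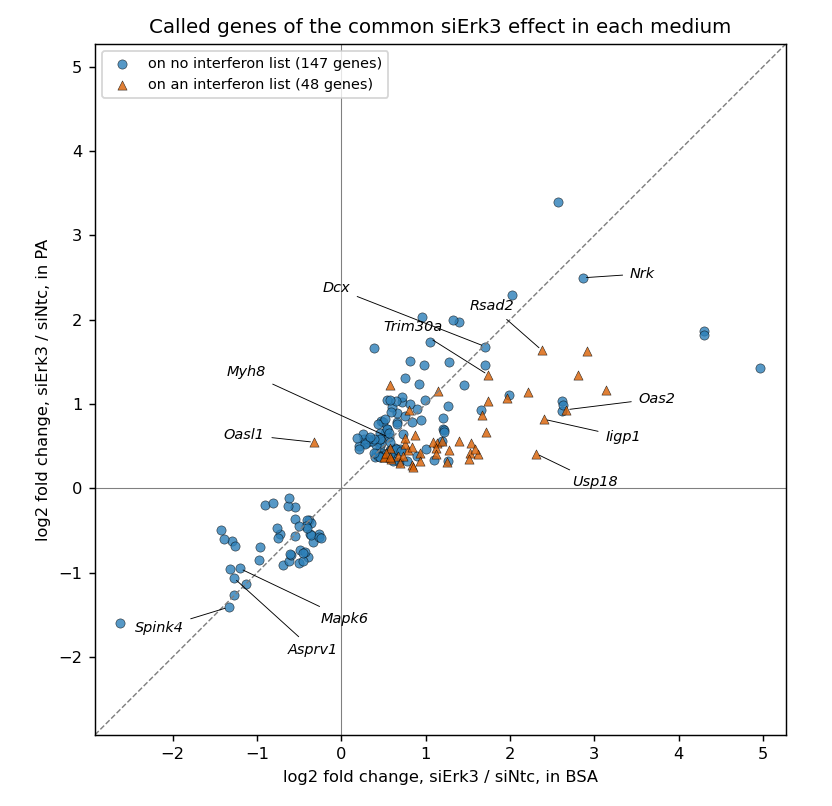
Log2 fold change of siErk3 over siNtc in BSA (x axis) and in PA (y axis) for 195 of the 196 called genes (Trim30c, which rests on 1 library, is left out). Triangles are the 48 genes on interferon lists, which lie mostly below the dashed line of equal change, with medians of 1.13 in BSA and 0.51 in PA, while circles are all other genes.

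Several sarcomere genes were among those that shifted alike. Myh8, the perinatal myosin heavy chain (chr11:67167950-67199460), was measured at 352, 329 and 345 CPM with siNtc and at 478, 479 and 559.9 with siErk3 in BSA. In PA it was measured at 235, 240.4 and 246 with siNtc and at 387, 365 and 345 with siErk3. The groups stood apart in both media although both were lower in PA than in BSA. The common log2 fold change was 0.58 (SE 0.04, edgeR FDR = 2.99e-10), and the effects of 0.56 in BSA and 0.60 in PA differed by 0.04 (95% interval -0.12 to 0.20). Myh8 lies in a cluster of near-identical myosin genes, so its counts may hold read pairs of relatives.

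Actn2, which encodes the Z-disc protein alpha-actinin-2 (chr13:12284312-12355641), was measured at 152, 163 and 171 CPM with siNtc and at 210.0, 222 and 246 with siErk3 in BSA. In PA the values were 129, 139 and 139 with siNtc and 187, 181 and 175 with siErk3. All siErk3 libraries were higher than all siNtc libraries of their medium (common log2 fold change 0.45, SE 0.04, edgeR FDR = 4.16e-08), and the difference between media was -0.06 (95% interval -0.22 to 0.09). Mybpc1, slow myosin-binding protein C, rose from a mean of 93.7 ± 9.41 to 128 ± 6.69 CPM in BSA (SD, n = 3 each) and in PA from 58.2 ± 1.23 to 82.2 ± 2.88. Its log2 fold changes of 0.46 and 0.50 differed by 0.04 (95% interval -0.13 to 0.20).

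Of the 20 slow or oxidative fiber genes, 3 rose (Mybpc1, Myh7 and Smtnl2) and 1 fell (Myl2). Of 24 fast or glycolytic fiber genes 1 rose (Pvalb), and of 24 genes of myogenic differentiation 2 rose (Myh8 and Myh3). Among all genes tested, 0.689% rose and 0.211% fell. These lists hold genes that the study picked from these same libraries, so their counts are not independent evidence. Their medians lay near that of all genes, at 0.00, -0.06 and 0.01 in the common effect. Myh7, the slow and cardiac beta myosin heavy chain, rose by 0.51 in BSA and 0.38 in PA on the log2 scale, with an interval of -0.28 to 0.03 for the difference. Smtnl2, a smoothelin-like protein, was low but separated. It was measured at 0.773, 0.708 and 0.757 CPM with siNtc and 1.73, 2.28 and 1.90 with siErk3 in BSA, and at 0.495, 0.274 and 0.152 with siNtc and 1.40, 1.19 and 1.14 with siErk3 in PA, a common fold change of 3.07. Myh3, the embryonic myosin heavy chain, had nearly equal log2 fold changes of 0.39 and 0.38 at group means of 2115 to 3194 CPM, but its fold change lay at the limit of 1.3, so it was called in 9 of the 12 fits that left out 1 library. Myl2, the slow and ventricular regulatory light chain, fell, with log2 fold changes of -0.40 in BSA and -0.82 in PA (interval of the difference -0.83 to -0.01). The calcium-binding protein Pvalb rose, by 0.31 in BSA and 0.59 in PA on the log2 scale.

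**Figure D2:**
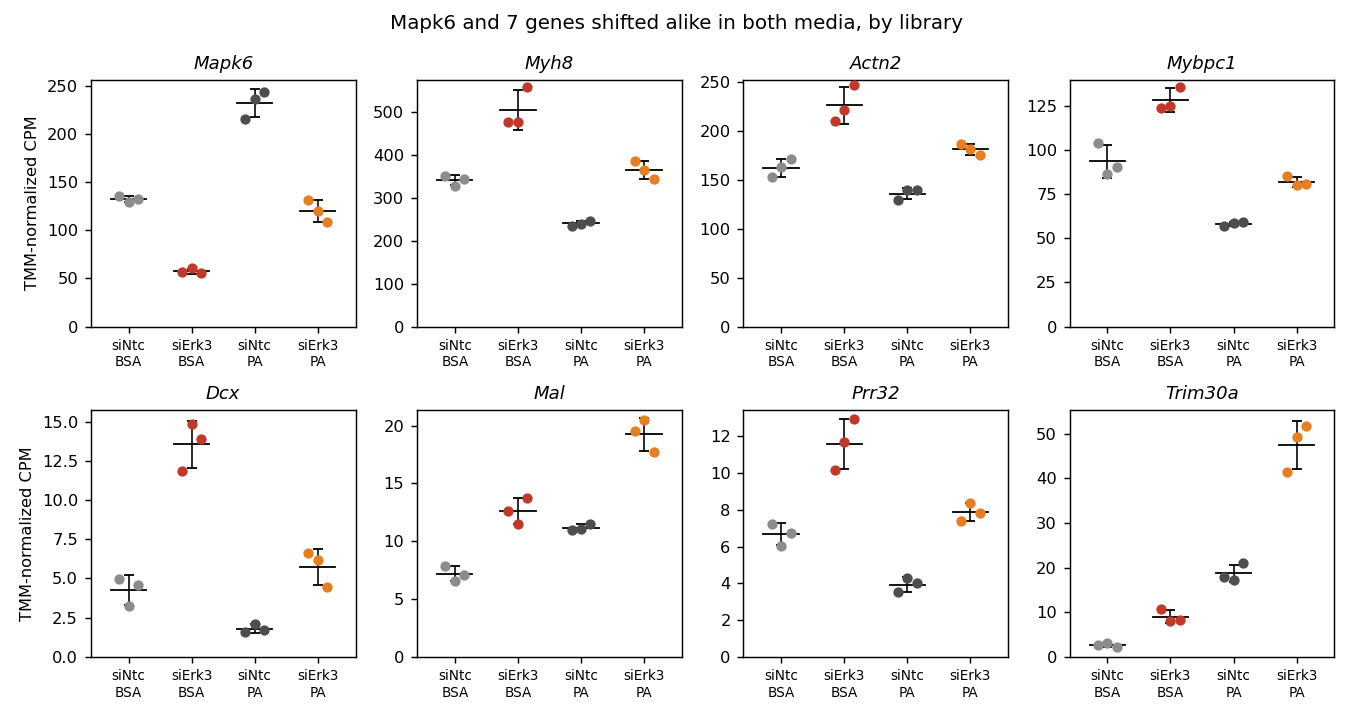
TMM-normalized CPM of Mapk6 and of 7 genes that rose alike, in each library (points) of siNtc and siErk3 in BSA and PA, with the group mean (line) and SD (bars, n = 3). Mapk6 is lower and the other 7 genes are higher in all 3 siErk3 libraries than in all 3 siNtc libraries of the same medium. The rule that named these genes required such separation.

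Most genes that rose were on no list, 94 of 150, and 73 of these 94 shifted alike. The lists are not complete. Called genes on no list include relatives of listed interferon genes, such as Ifi207, Ifi208, Gbp2b, Iigp1c and Trim30d (singled out afterwards). Dcx, the microtubule-binding protein doublecortin best known from migrating neurons, was measured at 4.99, 3.21 and 4.59 CPM with siNtc and at 11.9, 14.8 and 13.9 with siErk3 in BSA. In PA it was measured at 1.57, 2.10 and 1.72 with siNtc and at 6.61, 6.15 and 4.42 with siErk3. Its fold changes were 3.26 in BSA and 3.21 in PA (common log2 fold change 1.70, SE 0.11, edgeR FDR = 1.99e-10), with an interval of -0.55 to 0.50 for the difference, although the control level in PA was below that in BSA. Mal, a membrane protein of lipid-rich vesicles, had the opposite order of control levels, 7.17 ± 0.650 CPM in BSA and 11.2 ± 0.298 in PA (SD, n = 3 each), and rose to 12.6 ± 1.13 and 19.2 ± 1.41 (SD, n = 3 each). Its log2 fold changes of 0.84 and 0.79 differed by -0.05 (95% interval -0.35 to 0.26).

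Frem2, a basement membrane protein of the Fraser complex, rose by 0.72 in BSA and 1.03 in PA (common edgeR FDR = 1.4e-09), with an interval of 0.07 to 0.54 for the difference, so it was not classed as alike. Its partner in that complex Fras1, also singled out afterwards, rose by 0.46 and 0.66 (common edgeR FDR = 0.000149).

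Further genes on no list also rose. Prr32, a proline-rich protein, rose by 0.90 in common on the log2 scale, Asgr2, a subunit of the asialoglycoprotein receptor, by 1.01, Grb10, an adaptor that binds the insulin receptor, by 1.36, and Zdbf2, an imprinted zinc finger gene, by 1.04, and all of these shifted alike. Grb10 stood at 0.736 ± 0.0296 CPM with siNtc and 2.04 ± 0.162 with siErk3 in BSA and at 0.550 ± 0.329 and 1.34 ± 0.259 in PA (SD, n = 3 each). The kinase gene Nrk and the muscle genes Vgll2 (a cofactor of TEAD factors) and Wnt4 (a secreted Wnt ligand), singled out after their values were seen, also shifted alike. Nrk, at 0.209 and 0.312 CPM in the siNtc groups, rose by 2.86 in BSA and 2.50 in PA on the log2 scale (common edgeR FDR = 4.59e-08). Vgll2 rose by 0.64 and 0.48 (common edgeR FDR = 9.17e-06) and Wnt4 by 0.63 and 0.44 (common edgeR FDR = 1.19e-05).

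Genes on the 5 interferon lists accounted for 48 of the 150 genes that rose and for 0 of the 46 that fell, by edgeR at an FDR below 0.05. The shares over all genes tested, 0.689% higher and 0.211% lower, also stand beside the counts of each interferon list below. The interferon genes differed in how they shared the effect between media. Of the 48, 18 shifted alike and 44 had a larger log2 fold change in BSA, with a median of 1.13 in BSA and 0.51 in PA. Of the 102 other genes that rose, 79 shifted alike and 47 were larger in BSA, with medians of 0.64 and 0.67. These others are genes on none of the 5 lists. They include relatives of listed interferon genes, such as Ifi207, Gbp2b and Iigp1c, and the interferon-induced Cxcl9. The contrast is therefore between listed and unlisted genes, not between interferon-induced genes and all others. All 48 interferon genes had a higher control level in PA than in BSA, with a median log2 ratio of 2.75 between the siNtc groups (0.5 CPM added), while 38 of the 102 others were higher there, with a median of -0.25. For 47 of the 48, siErk3 in BSA stayed below siNtc in PA. Because the common estimate weights a gene by its counts, it lies closer to the PA value for these genes. In BSA the siErk3 library of replicate 1 was the highest of its group for 41 of the 48 genes, and without it 46 interferon genes were called as higher and 23 of them shifted alike. In PA the siNtc library of replicate 2 was the lowest of its group for 40 of the 48, and without it 42 were called and 11 shifted alike. Without siErk3 replicate 1 in PA, the lowest of its group for 36, it was 56 and 21.

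Sensors and signalling genes came first in the pathway. Of 17 sensors of nucleic acid and their adaptors, 4 rose (median log2 fold change over the list 0.37 in BSA and 0.17 in PA). Ifih1, which encodes the RNA sensor Mda5, was measured at 4.43, 6.33 and 4.54 CPM with siNtc and 11.5, 9.36 and 7.33 with siErk3 in BSA, and at 67.2, 78.9 and 91.4 with siNtc and 124, 112 and 96.6 with siErk3 in PA. The groups were apart in both media and its log2 fold changes of 0.84 and 0.49 were classed as alike, with an interval of -0.82 to 0.13. Mndal and Ifi203, members of the DNA-binding Ifi200 family, rose by 0.50 and 0.42 in common, and Zbp1, a sensor of Z-form nucleic acid, by 0.50. Of 20 genes of interferon signalling and feedback only Irf7 and Usp18 rose, with a list median of 0.06 in BSA and 0.01 in PA.

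Usp18, the protease that removes Isg15 and damps the interferon receptor, shifted by unequal amounts. It was measured at 0.562, 1.17 and 0.520 CPM with siNtc and 5.45, 3.67 and 2.83 with siErk3 in BSA, and at 45.1, 38.5 and 50.9 with siNtc and 58.1, 61.1 and 59.5 with siErk3 in PA. The groups stood apart in both media, with fold changes of 4.95 in BSA and 1.33 in PA, a difference of -1.89 on the log2 scale (95% interval -2.56 to -1.23, edgeR FDR = 0.0407). Irf7, the transcription factor that amplifies interferon production, rose by 1.52 in BSA and 0.42 in PA on the log2 scale, but the difference of -1.11 did not pass over all genes (edgeR FDR = 0.167).

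Antiviral effectors were the largest group, with 28 of 57 genes higher and a list median of 0.76 in BSA and 0.32 in PA. Of the 28, 12 shifted alike. Rsad2, the antiviral enzyme viperin, was measured at 0.281, 0.375 and 0.236 CPM with siNtc and 2.45, 1.22 and 1.18 with siErk3 in BSA. In PA it was measured at 30.8, 29.5 and 37.5 with siNtc and at 101 ± 5.24 with siErk3 (SD, n = 3), where the lowest library was at 95.3. The groups were far apart in both media although the levels in BSA were low (common log2 fold change 1.67, SE 0.09, edgeR FDR = 1.83e-12). The log2 fold changes of 2.37 and 1.64 differed by -0.74, with a wide interval of -1.72 to 0.25. Trim30a, a Trim family protein that tempers Toll-like receptor signalling, rose from 2.66 ± 0.431 to 8.97 ± 1.50 CPM in BSA and in PA from 18.7 ± 1.93 to 47.5 ± 5.33 (SD, n = 3), with a common edgeR FDR = 2.16e-11. Slfn5, a Schlafen protein, had fold changes of 2.22 and 2.23 at control levels of 1.09 and 6.33 CPM. The computed interval of its difference on the log2 scale was -1.16 to 1.18. That width is not reliable, because it is derived from a difference near 0. The SE of the effect was 0.26 in BSA and 0.14 in PA. The nuclear body protein Sp100 rose by 0.88 and 0.64 on the log2 scale.

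Other effectors rose more in BSA. Oas2, an enzyme that makes the 2-5A messenger of RNase L, was measured at 1.76, 2.88 and 1.37 CPM with siNtc and 19.6, 11.7 and 8.59 with siErk3 in BSA, and at 44.4, 40.5 and 50.8 with siNtc and 83.7, 87.5 and 87.2 with siErk3 in PA. Its fold change was 6.34 in BSA and 1.91 in PA, and the difference passed (edgeR FDR = 0.0443). The relative Oasl2 rose 2.39-fold in BSA, while its fold change of 1.24 in PA was below the limit (edgeR FDR = 0.0493 for the difference). Members of the Oas family can share read pairs. Isg15, the ubiquitin-like modifier, had log2 fold changes of 1.52 and 0.35, with an interval of -1.68 to -0.66 for the difference that did not pass over all genes (edgeR FDR = 0.108).

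Of 17 interferon-inducible GTPases, which attack vacuoles of intracellular microbes, 8 rose (list median 1.12 in BSA and 0.47 in PA). Only Igtp shifted alike, by 0.53 and 0.41 on the log2 scale, while Iigp1 rose by 2.40 in BSA and 0.82 in PA and was unequal (edgeR FDR = 0.0493 for the difference). Of 20 genes of antigen presentation 6 rose, with list medians of 0.29 in BSA and 0.28 in PA. Gene by gene the median difference was -0.14, 15 of the 20 and 5 of the 6 called genes were larger in BSA, and 4 of the 6 were undetermined. Nlrc5, the transactivator of class I genes, rose by 0.80 and 0.93, and the class I gene H2-Q4 by 0.75 and 0.52, and both shifted alike. B2m, the shared light chain of class I molecules, was measured at 164, 169 and 163 CPM with siNtc and 248, 225 and 240.3 with siErk3 in BSA, and at 283, 275 and 299 with siNtc and 363, 373 and 376 with siErk3 in PA. Its log2 fold changes of 0.52 and 0.37 were close but the interval of the difference ended just below 0, and the fold change in PA was just under 1.3.

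**Figure D3:**
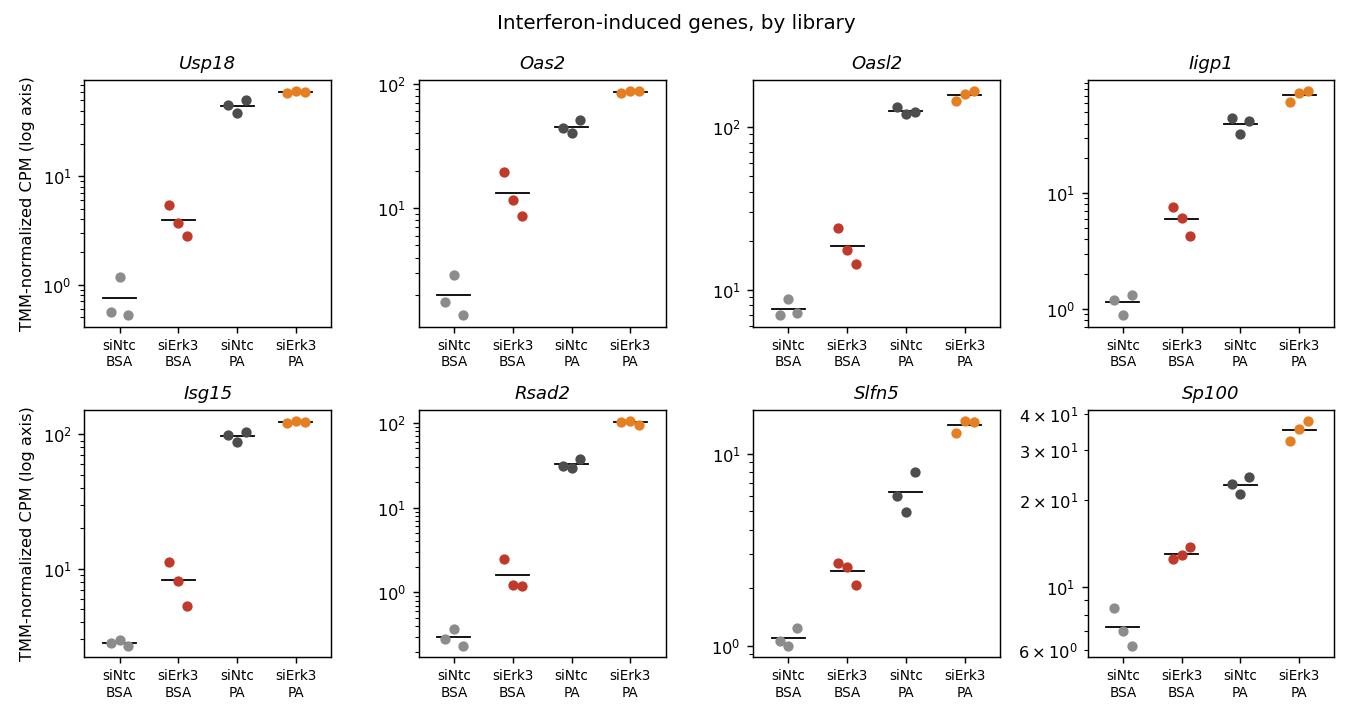
TMM-normalized CPM on a log axis of 8 interferon-induced genes in each library (points), with group means (lines, n = 3). Usp18, Oas2, Oasl2 and Iigp1 differed between media in the size of the siErk3 effect, Rsad2, Slfn5 and Sp100 shifted alike, and in all 8 the siNtc libraries in PA lie above the siErk3 libraries in BSA.

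Of 28 chemokine and NF-kappaB feedback genes, 2 rose (Ccl5 and Cxcl9) and 1 fell (Cxcl5), all 3 shifted alike. Over all genes 0.689% rose and 0.211% fell. The list medians were 0.06 in BSA and 0.00 in PA. The T-cell attractant Ccl5 rose by 1.19 in BSA, where it was below 0.6 CPM, and by 0.56 in PA, and the interferon-induced Cxcl9 by 0.89 and 0.39 on the log2 scale. By edgeR at an FDR below 0.05, 0 members were called among 13 genes of sarcoplasmic reticulum calcium handling and 30 of fatty acid handling. The same count of 0 held for 53 genes of the respiratory chain, 22 of stress responses and 25 of the matrix. Over all genes 0.900% were called, so 0 calls in lists of this size do not show that they were spared. The medians of these lists in the common effect ran from -0.05 to 0.04. The sign of the median differed between media for some lists, whose members can vary together and so are not independent counts. Of the 25 matrix and Ccn genes, 21 were above 0 in BSA and 2 in PA, and 24 had the larger value in BSA (medians 0.08 and -0.15). Their summed levels overlapped between the groups in both media. In BSA they ran from 44880 to 49766 CPM with siNtc and 48492 to 49800 with siErk3. In PA they ran from 27003 to 31758 and from 23393 to 28640. Of the 14 markers of undifferentiated or cycling myoblasts, 11 were above 0 in BSA and 4 in PA, and 12 had the larger value in BSA (medians 0.07 and -0.06). The part of these markers in the matrix values was not tested. The median of all genes was 0.02 in BSA and -0.00 in PA.

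**Figure D4:**
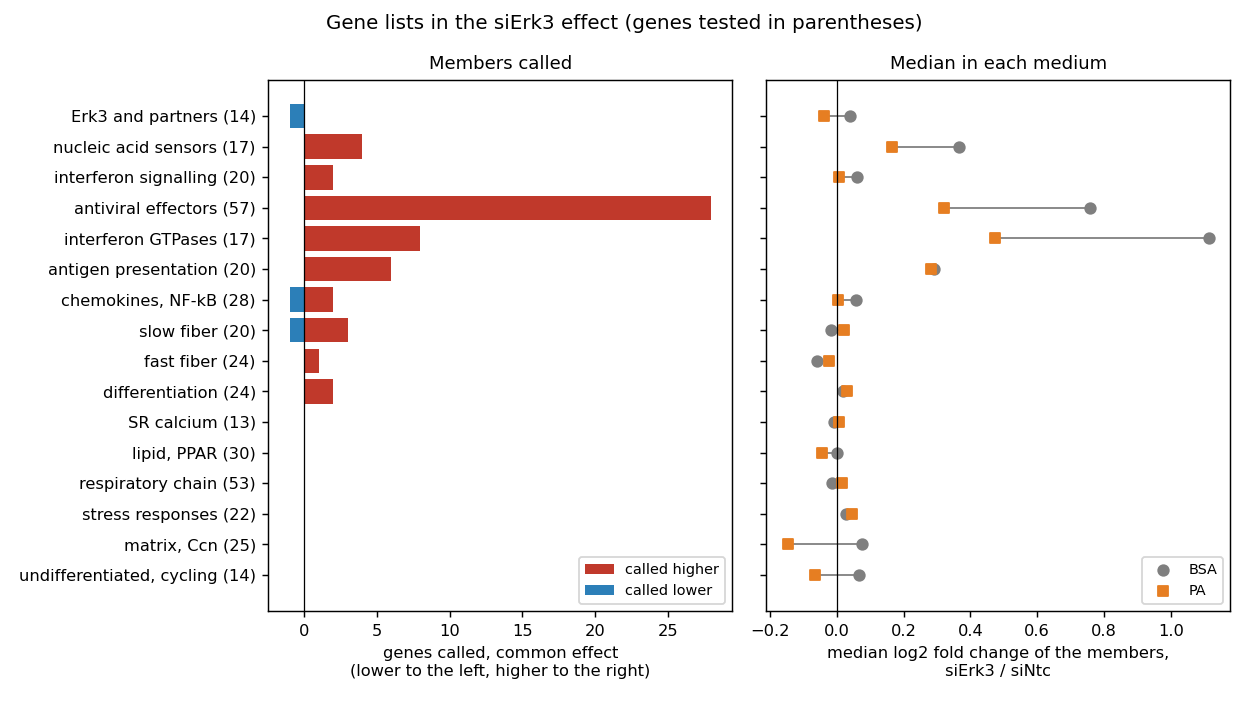
Left, the number of members of each list called higher or lower in the common siErk3 effect, with the number tested in parentheses. Right, the median log2 fold change of all tested members in BSA (circles) and PA (squares), which lie apart for the antiviral effectors (0.76 and 0.32) and the GTPases (1.12 and 0.47) and closer for antigen presentation (0.29 and 0.28, although 15 of its 20 genes were larger in BSA) and the muscle lists.

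The 46 genes that fell, 43 of them on no list, had a median log2 fold change of -0.60 in BSA and -0.61 in PA. Apart from Mapk6, the gene with the smallest FDR was Asprv1, an aspartic protease of skin. It was measured at 3.51, 3.54 and 3.40 CPM with siNtc and 1.65, 1.48 and 1.22 with siErk3 in BSA, and at 4.18, 3.56 and 3.84 with siNtc and 2.01, 1.59 and 1.99 with siErk3 in PA. The groups stood apart by a similar distance in both media (log2 fold changes -1.28 and -1.06, interval of the difference -0.31 to 0.74, common edgeR FDR = 3.32e-07). Cxcr6, the receptor of the chemokine Cxcl16, was measured at 5.20, 5.29 and 5.34 CPM with siNtc and 2.37, 2.49 and 3.15 with siErk3 in BSA, and at 6.75, 7.11 and 7.48 with siNtc and 4.73, 3.51 and 3.57 with siErk3 in PA. It fell alike as well (log2 fold changes -0.97 and -0.85, common edgeR FDR = 5.87e-07). Spink4, a Kazal-type protease inhibitor, fell by 1.34 in BSA and by 1.41 in PA on the log2 scale, and the noncoding gene Gm48395 by 1.13 and by 1.14.

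Several metabolic enzymes and secreted proteins were among the genes that fell alike. Car3, the muscle carbonic anhydrase, was measured at 5.41, 5.92 and 6.43 CPM with siNtc and 3.13, 3.21 and 4.65 with siErk3 in BSA, and at 4.95, 4.38 and 5.51 with siNtc and 2.50, 3.11 and 2.13 with siErk3 in PA (log2 fold changes -0.69 and -0.91, common edgeR FDR = 6.96e-05). Hsd17b13, a lipid droplet enzyme, had log2 fold changes of -1.26 and -0.69, the aldehyde dehydrogenase Aldh3b3 of -0.62 and -0.86, and Padi4, which converts arginine to citrulline in proteins, of -0.73 and -0.55. The chemokine Cxcl14 had the highest counts of this set. It fell from 48.6 ± 3.99 to 34.4 ± 1.97 CPM in BSA and in PA from 25.9 ± 4.15 to 14.1 ± 4.86 (SD, n = 3), with log2 fold changes of -0.50 and -0.89 and an interval of -0.78 to 0.01 for the difference.

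Secreted or membrane proteins also appeared among the lower genes left undetermined. Cilp, a matrix protein of cartilage and muscle, changed by -0.26 in BSA and -0.54 in PA, and Chrdl1, an antagonist of bone morphogenetic proteins, by -0.37 and -0.54. Cilp was called in 8 of the 12 fits that left out 1 library. Cd28, a receptor best known from T cells, was measured at 6.41 ± 0.746 CPM with siNtc and 2.57 ± 0.563 with siErk3 in BSA, and at 4.23 ± 0.571 and 2.74 ± 0.249 in PA (SD, n = 3 each). The blood cell markers Ptprc and Cd3e did not reach 10 counts over all 18 libraries. Cd3g, a relative of Cd3e singled out afterwards, was itself called. The largest fitted decrease, that of Trim30c, came from 1 library. It was at 13.8 CPM in siNtc replicate 1 in PA and at no more than 0.615 in any other of the 12, and without that library its log2 fold change was 0.86.

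**Figure D5:**
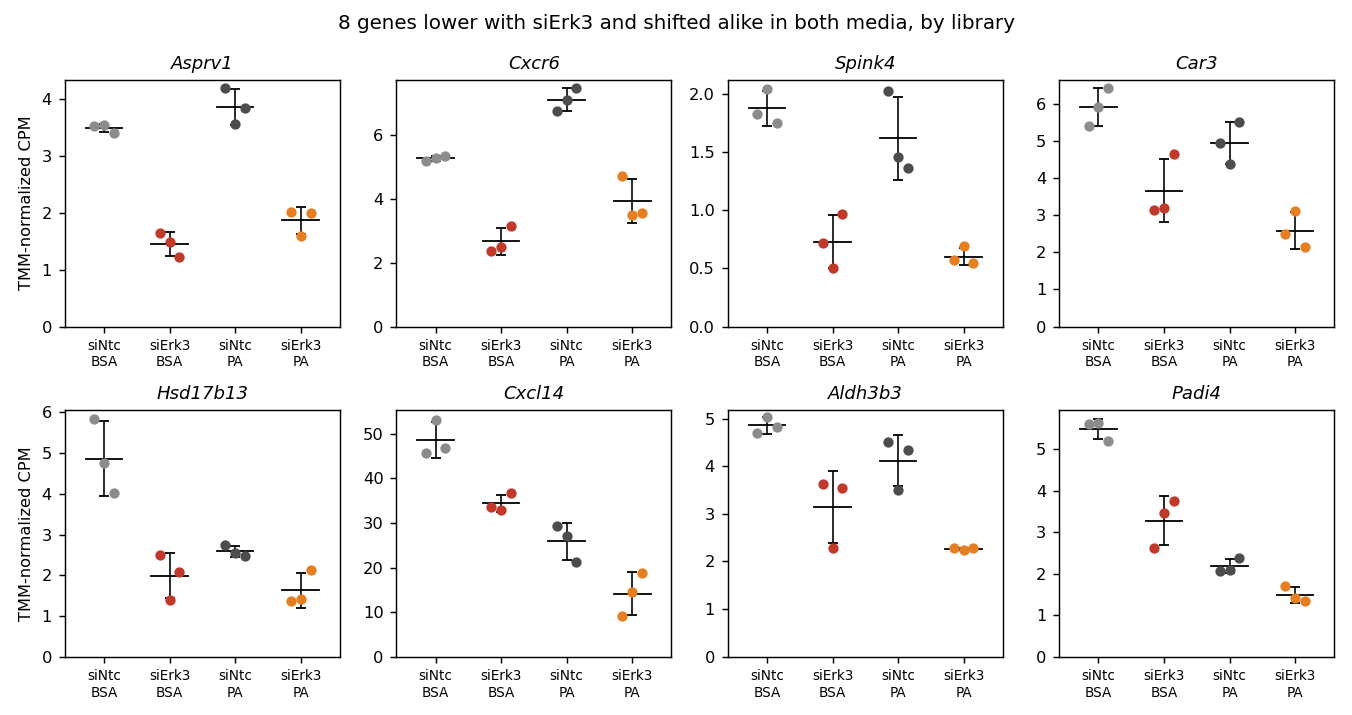
TMM-normalized CPM of 8 genes that fell alike in both media, in each library (points), with the group mean (line) and SD (bars, n = 3). In every panel the 3 siErk3 libraries lie below the 3 siNtc libraries of the same medium. The rule for naming genes used such separation in part.

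Among the 89 genes that could be named by the rule for this report, 80 gave p = 0.005 in a two-sided exact permutation test that reassigned libraries within each medium, which is the smallest p that its 400 arrangements allow. These genes were chosen by the fitted test, so the count is a description.

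The siMk5 libraries offer a reference with another pool of siRNAs. It is not a neutral one, since the paper reports that Mk5 silencing lowered Erk3 protein in these cells. A fit of siErk3 against siMk5 over both media called 250 genes (1.15%), and it shares the siErk3 libraries with the comparison against siNtc, so the values are given side by side. Against siMk5, Mapk6 differed by -1.08, Myh8 by 0.70 and Mybpc1 by 0.81 on the log2 scale, where against siNtc they changed by -1.07, 0.58 and 0.48. Dcx differed by 1.08 against siMk5 and 1.70 against siNtc, and Nrk by 2.55 and 2.66. Myh7 differed by 0.08 against siMk5 (edgeR FDR = 0.403) and 0.45 against siNtc, since its level with siMk5 was 187 ± 4.98 CPM in BSA and 138 ± 3.10 in PA (SD, n = 3 each) against 203 ± 21.4 and 141 ± 6.67 with siErk3 (SD, n = 3 each). Of the interferon genes, Rsad2 differed by 2.24 against siMk5 and 1.67 against siNtc, Trim30a by 2.29 and 1.44, and Slfn5 by 2.16 and 1.15. In PA the siMk5 means of these genes were themselves below the siNtc means. They were 21.7 and 32.6 CPM for Rsad2, 8.99 and 18.7 for Trim30a, and 2.92 and 6.33 for Slfn5. The larger differences against siMk5 thus include a lower level with siMk5. Of the lower genes, Asprv1 differed by -0.61 and -1.16, Cxcr6 by -0.55 and -0.91, Myl2 by -0.72 and -0.59, and Padi4 by 0.23 (edgeR FDR = 0.647) and -0.67.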

How the data were processed

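RNA of C2C12 myotubes was sequenced in 6 groups of 3 libraries. Gene-level read counts were deposited by the authors in 1 table of all libraries, made with STAR alignment and featureCounts 2.0.0 on the Ensembl 105 annotation with stranded counting and a minimum mapping quality of 3. The file header names GRCm39 and the labels name mm10, and coordinates here are those of GRCm39. A second deposited table, of log2-scale normalized values of the same libraries, was not used. Of 55414 genes, the 21772 whose counts over the 18 libraries summed to 10 or more were kept. TMM factors were computed over 18 libraries. The common effect came from edgeR 4.0.16 (R 4.3.3, limma 3.58.1), quasi-likelihood test, on 12 libraries with medium and silencing as terms, and the effects within a medium and their difference came from all 18 libraries with 1 coefficient per group. FDR values are Benjamini-Hochberg adjusted over all genes tested, 21771 in the common effect. Intervals are 95%.

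The genes and lists were chosen with earlier results of these data known. Genes were named from Mapk6, Mapkapk5, the called members of the lists, the 15 called genes with the smallest FDR in each direction among those whose groups did not overlap in either medium, the 10 called genes in each direction on no list with the largest change and a mean of at least 1 CPM, and the 5 called genes with the smallest FDR for the difference between media. Others are marked as chosen afterwards. On simulated counts for 21772 genes, 150 of 150 genes changed alike were recovered, 141 were classed as alike, and 10 unchanged genes were called. How far these figures hold for genes with low counts, for changes near 1.3-fold or for control levels that differ between media was not tested. No 2 libraries of a group agreed within sampling noise. DESeq2 1.42.0, other normalization, filters, libraries and covariates were tried. Promoters came from GRCm39 with GENCODE release 39. Python 3.11.15, pandas 2.3.3, scipy 1.17.1 and matplotlib 3.10.9 were used. Some named genes are not reported here.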

Additional observations from a re-analysis of the deposited data

Results flagged for a closer look

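For 9 genes the siErk3 effect differed between the media at an FDR below 0.05 in edgeR's quasi-likelihood test of the difference, with FDR values of 0.0407 to 0.0493. The log2 fold change in PA minus that in BSA was -1.89 for Usp18, -1.73 for Oas2, -1.70 for Ifit1, -1.58 for Iigp1 and -0.94 for Oasl2, all interferon-induced genes with the larger effect in BSA. It was -0.38 for the matricellular gene Ccn1, -0.32 for the thrombin receptor gene F2r, 0.58 for the connexin gene Gja5 and 1.28 for the apolipoprotein L gene Apol8. Leaving out 1 library at a time gave between 0 and 29 such genes.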

How the results depend on the processing

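The number of genes whose effect differed between media was the least stable result, at 16 with DESeq2, 5 with DESeq2 size factors in edgeR, 0 with filterByExpr in edgeR (in the reported fit 1329 genes had an unadjusted p under 0.05), 153 with no filter, 14 with the 18S share as a covariate and 0 to 29 without 1 library. The genes that fell numbered 88 with no filter, 30 with a replicate block, 28 with the 18S covariate and 29 to 62 without 1 library, with the lowest count without siErk3 replicate 2 in BSA. Without a fold criterion 404 genes were called in the common effect, 263 in BSA and 186 in PA, and without a filter 208 were called in PA. Genes shifted alike numbered 28 when the interval of the difference had to lie within 0.5, and 102 to 137 without 1 library. Without 1 library the common effect held 172 to 222 genes (137 to 160 higher), BSA 113 to 195 (lowest without siNtc replicate 2 in BSA), PA 85 to 168 and the comparison with siMk5 213 to 264. The log2 fold change of Trim30c ran from -3.93 to 0.86 without 1 library, reversed without siNtc replicate 1 in PA. Of 1690 values for named genes under the alternatives, 1624 kept direction and call, 65 lost the call and 1 reversed. Libraries of the same number did not pair, with correlations of -0.08, -0.05 and 0.05 in BSA and -0.61, 0 and -0.6 in PA. Crossed numbers did correlate in PA, at 0.62 for siErk3 replicate 1 with siNtc replicate 3. For siErk3 replicate 3 with siNtc replicate 1 it was 0.58. The replicate block followed the numbers, so it does not take up this crossed order. With it 171 genes were called and 27 calls were lost. With the 18S covariate 57 calls were lost. The causes were not tested. Low counts in BSA left wide intervals for interferon genes.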
